A study of Mus musculus with 16 samples.

Results

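The type I interferon stimulated genes of mouse bladder were followed gene by gene and array by array in mature and aged mice of both sexes. The members were 41 mouse symbols drawn from the best known targets of type I interferon, with Rigi also known as Ddx58. A symbol entered when the accession of a probe mapped to it and the probe was well above background, by the scanner software's own flag, on at least 4 of the 16 arrays. The members were thus chosen by detection, and listed with a higher level of interferon genes in AGED females already known. By this rule 37 members were measured, of 26781 genes measured in all. Of these 26781, 15933 had a reference symbol, and the rest were accessions without one, each counted as a gene. Shares of all genes below are over this whole set. Probes of Oas1g were well above background on 0 arrays, and no probe was matched to Mx1, Mx2 or Ddx60. Of the 37, 36 were well above background on all 16 arrays. Oas3 was the exception, measured on 9 arrays, of which 4 were AGED female arrays and 5 were spread over the other groups.

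RNA came from the dissected bladder body of C57BL/6 mice, with 1 bladder on each of 16 arrays. The age was 12 months in MAT mice and 27 to 30 months in AGED mice, each age was represented by 4 males and 4 females, and the labels name no treatment or transgene in any group. Each array gave 1 intensity per spot for Cy3-labelled RNA on an Agilent mouse array of 62976 spots. All female arrays lay on 1 slide and all male arrays on the other, with the MAT arrays in the first row of each slide and the AGED arrays in the second, so sex cannot be told apart from slide or age from slide row.

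Values below are levels on the log2 scale, the processed signal of a probe less the 75th percentile of its array, so that a level of 0 lies at that percentile and a difference of 1 is 2-fold. A change is the difference of group means on the same scale, AGED less MAT, with age and sex as the labels of each array give them. For the genes checked among those the study lists as most changed, the direction by these labels was the opposite, in both sexes, of the study's. These genes lie outside the member list. They include Kcnj5, which the study gives as higher with age, and Chil3 and S100a9, which it gives as lower. The cause of this was not tested, and if the labels of MAT and AGED arrays were exchanged, every change given here would turn its sign. A gene was called at an adjusted p under 0.05 with at least a 2-fold change in limma, with adjustment over all 26781 genes. The number of arrays limits the precision, and every p measures only the spread among these 16 arrays. The share of probes well above background was 64.6% to 68.2% in MAT females and 59.9% to 63.2% in AGED females, so it was lower on every AGED female array. In males it was 60.4% to 65.8% in MAT and 52.3% to 61.2% in AGED mice, and it was lowest on AGED male 1. The part of this difference in the changes with age was not tested. Markers of urothelium and of smooth muscle, the main layers of the bladder wall, were all measured, with mean levels of 4.84 to 5.54 and 5.84 to 6.44 over the arrays.

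Type I interferons are secreted proteins that bind a receptor made of Ifnar1 and Ifnar2. The receptor activates the kinases Jak1 and Tyk2, which phosphorylate STAT proteins, Stat2 among them, and these join Irf9 to form the complex ISGF3. ISGF3 enters the nucleus and binds the interferon stimulated response element, or ISRE, in the promoters of many target genes. Many of the target proteins restrict viruses, sense foreign nucleic acid or feed back on the pathway, and most cell types, including urothelium, smooth muscle and leukocytes, can make them.

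Promoters are shown for 5 members whose sequence just before the transcription start holds the ISRE letters, as examples, and for a pair without them. RefSeq windows of GRCm38.p6, from 250 bases before to 50 bases after the start, were matched to 30 of the 41 members. The ISRE was searched as the letters GAAA, any 2 bases and GAAA again, on both strands, and overlapping matches were counted separately. It was present in windows of 15 of the 30 members (50%), against 3.99% of all 27025 genes with a window. The element of type II interferon, GAS, searched as TTCNNNGAA, was present for 6 of the 30 (20%), against 9.55% of all genes. A match describes letters and not a bound site, and the absence of these letters says nothing of binding elsewhere. The following stretches hold the 110 bases before the start on the strand of the gene, 5′ to 3′, with ISRE letters in capitals.
Isg15, chr4:156200819-156200928, minus strand: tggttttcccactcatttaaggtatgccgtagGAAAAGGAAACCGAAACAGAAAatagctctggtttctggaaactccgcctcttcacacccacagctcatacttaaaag
Ifit1, chr19:34640779-34640888, plus strand: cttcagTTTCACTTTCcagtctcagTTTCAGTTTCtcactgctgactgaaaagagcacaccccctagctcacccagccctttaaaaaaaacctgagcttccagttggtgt
Oas1a, chr5:120907526-120907635, minus strand: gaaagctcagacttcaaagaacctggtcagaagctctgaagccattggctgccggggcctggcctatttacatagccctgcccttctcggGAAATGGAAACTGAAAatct
Oas1g, chr5:120887614-120887723, minus strand: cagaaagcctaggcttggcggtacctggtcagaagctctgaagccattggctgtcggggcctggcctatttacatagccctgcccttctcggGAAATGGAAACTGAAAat
Oas3, chr5:120777660-120777769, minus strand: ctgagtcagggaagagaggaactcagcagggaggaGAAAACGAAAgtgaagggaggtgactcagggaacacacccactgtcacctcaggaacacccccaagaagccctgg
Irf7, chr7:141266425-141266534, minus strand: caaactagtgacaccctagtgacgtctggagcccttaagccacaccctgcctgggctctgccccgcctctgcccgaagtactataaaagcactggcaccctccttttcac
Oasl1, chr5:114923130-114923239, plus strand: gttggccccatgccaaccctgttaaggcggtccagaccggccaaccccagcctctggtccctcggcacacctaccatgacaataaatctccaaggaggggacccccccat

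Isg15 held 3 overlapping matches on the gene's own strand, the first of which began 78 bases before the start. Ifit1 held 2 matches on the opposite strand, where the letters read TTTC, the first at 104 bases. Oas1a and its neighbour Oas1g held the same run of capitals close to the start, from 20 bases in Oas1a and from 18 bases in Oas1g, although Oas1a was measured on all 16 arrays and Oas1g on none. Irf7 and Oasl1 are shown because both were among the members with large female changes and held no match in their windows. Among measured members with a window, the median female change was 1.31 (0.76 to 2.89) in the 13 with a match and 1.00 (0.44 to 2.93) in the 15 without one, and these ranges overlapped over most of their length.

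In AGED females all 37 members had a higher mean than in MAT females, with a median change of 1.21, or 2.31-fold, against a median of -0.01 over all genes. The changes ran from 0.27 for Tor3a to 2.93 for Irf7. On 33 of the 37 members every AGED female array lay above every MAT female array, a separation seen for 5.05% of all genes, and the 4 exceptions were Tor3a, Psmb8, Psmb9 and Cxcl10. Of the 37, 11 were called higher (Irf7, Irf9, Dhx58, Oasl1, Oasl2, Eif2ak2, Ifit1, Ifit3, Usp18, Rtp4 and Xaf1), against 0.179% of all genes. Because the list was drawn up with these AGED female arrays in view, the female values are a description, and no p is given for them. In bulk tissue, more cells of a type and more RNA per cell cannot be told apart.

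The count of calls in females depended on single arrays more than the median change did. Without MAT female 1, MAT female 4 or AGED female 2, 0 members were called, and 1 member was called without MAT female 2 or AGED female 4. The count was 3 without AGED female 1 and 6 without MAT male 1 or MAT male 3. It was 18 without AGED male 3 and 23 without AGED male 1, because all 16 arrays share 1 estimate of the spread. The median change stayed between 1.14 and 1.46 in all of these fits.

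**Figure D1:**
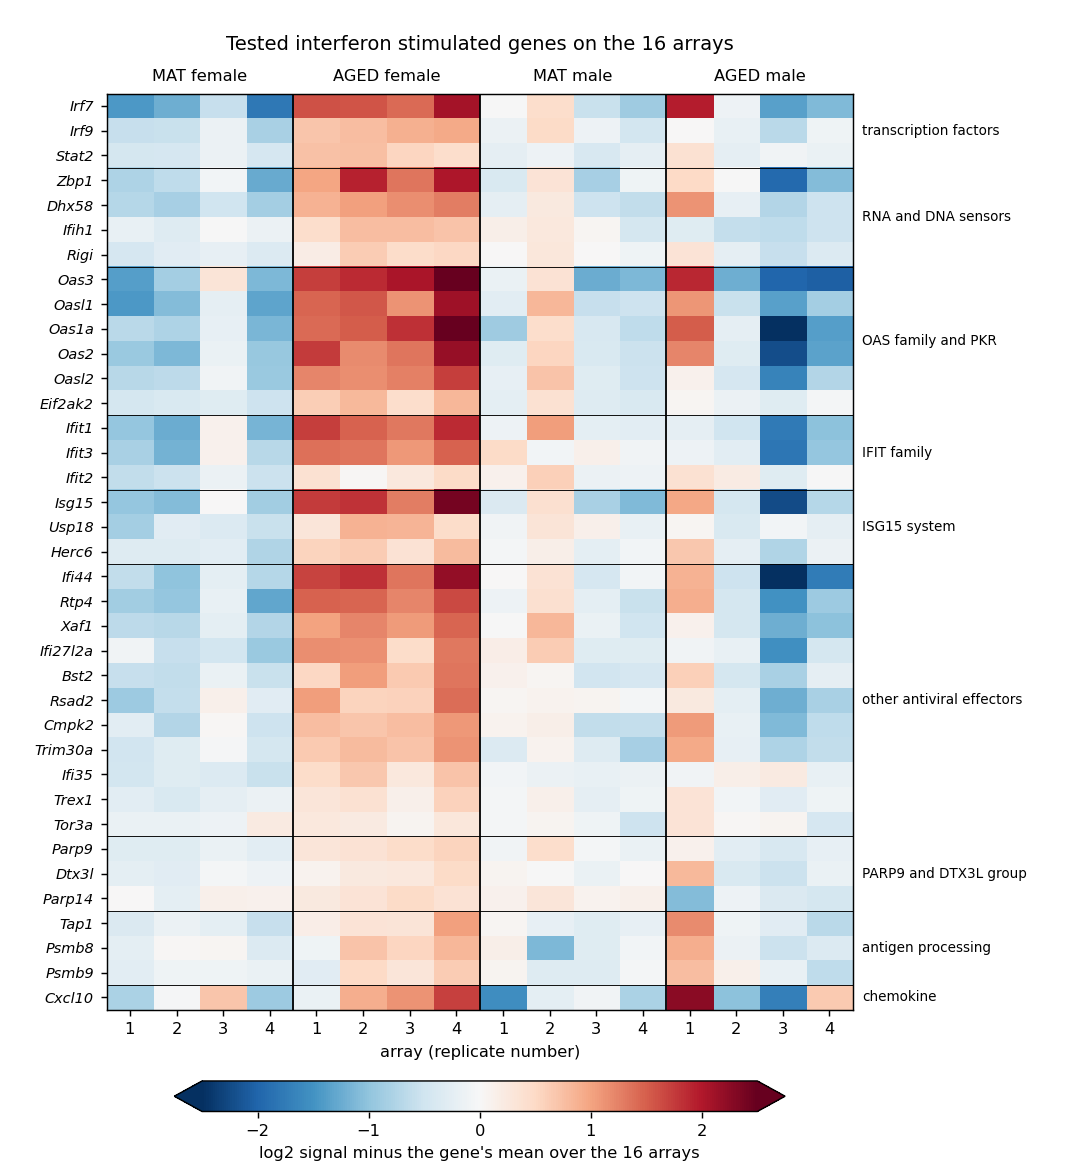
Level of each of the 37 measured members (rows, by role and then by female change) on each of the 16 arrays (columns, by group), as the log2 signal less the gene's mean over the 16 arrays, red above and blue below. The AGED female columns are red in nearly every row, the MAT female columns are mostly blue, and the AGED male group is split, with array 1 red and array 3 blue in most rows.

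The heatmap of the 37 members shows the female contrast as a block of 4 red columns beside 4 blue ones. Within MAT females, array 3 was the highest of its group for 30 of the 37 members, and within AGED females array 4 was the highest for 32. AGED female 4 was also the dimmest female array, with a 75th percentile of 9.831 before scaling where the other female arrays had 10.19 to 10.82. The part of dimness in its levels was not tested. The median over the members of the deviation from each gene's mean was between -0.572 and -0.156 on MAT female arrays and between 0.696 and 1.13 on AGED female arrays. On all 4 AGED female arrays it lay above that of every other array.

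In AGED males 13 members had a higher mean and 24 a lower mean than in MAT males, with a median change of -0.18 and a range from -1.05 for Ifi44 to 0.71 for Cxcl10. Limma called 0 of the 37 in either direction, against 0.851% of all genes, and the smallest adjusted p was 0.0602, for Parp14. At an unadjusted p under 0.05, 0 members were higher and 5 lower (7.86% and 8.36% of all genes), and the methods' t-test with its 2-fold limit gave 0 in each direction. AGED arrays lay below all MAT arrays for 2 members, Ifit3 and Parp14, a share close to the 3.87% of all genes with that order. These counts do not show that the members stayed level in males, because the AGED male arrays were far apart from each other. The median SD of the members was 0.645 in AGED males, against 0.364 over all genes in that group and 0.213 to 0.353 for the members in the other groups.

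AGED male 1 was the highest of its group for 35 of the 37 members and AGED male 3 the lowest for 29. The members' median deviation was 0.49 on AGED male 1 and -0.22, -0.762 and -0.524 on AGED males 2 to 4, so it was positive on 1 bladder and negative on the other 3. AGED male 1 did not pass the criterion for single arrays given further below, since the other 3 also differed among themselves. Without AGED male 1, 34 of the 37 members were lower in AGED than in MAT males, the median change was -0.39, and 16 were lower at an unadjusted p under 0.05, as were 8.28% of all genes. This fit was chosen after AGED male 1 was seen to be the highest of its group for most members. Ifi44 was then called lower, with a change of -1.69, against 0.803% of all genes called lower. AGED male 1 was also the array with the lowest share of probes above background, 52.3%. Its markers of most leukocyte types, but not of all, were high as well. The summed signal of 10 T cell markers was 26.8 on AGED male 1 and 4.79 to 7.6 on AGED males 2 to 4, that of 6 NK cell markers was 11.8 against 0.74 to 2.34, and that of 9 macrophage markers was 190 against 95.4 to 106. The sum of 6 neutrophil markers was not high, at 93.5 against 95.6 to 117. That of 5 conventional dendritic cell markers, 1.56, lay within the 0.949 to 2.25 of AGED males 2 to 4. The part of leukocyte content or dimness in the members' levels on this array was not tested.

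**Figure D2:**
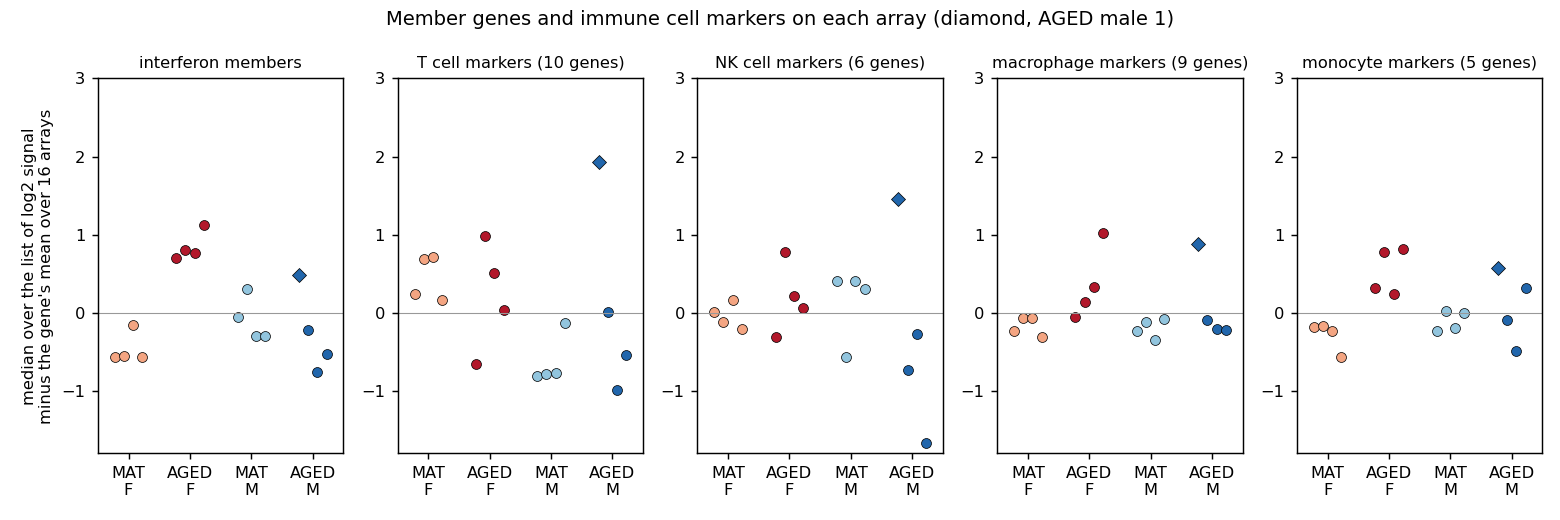
Median over a gene list of the log2 signal less the gene's mean over 16 arrays (vertical axis), with 1 point per array in each group (horizontal axis; F, females; M, males), for the 37 members and for markers of 4 leukocyte types. AGED female arrays are high for the members, from 0.696 to 1.13, while their T cell and NK cell values overlap those of MAT females, and AGED male 1 (diamond) is the highest of its group in every panel.

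The plot of the member median beside the leukocyte markers sets these measurements side by side for all groups. In AGED females the summed T cell signal was 4.9 to 12.5, against 8.34 to 10.8 in MAT females, with 0 of 10 markers higher on average. For macrophages 8 of 9 markers were higher in AGED females and 0 were called, with summed signals of 75.4 to 137 against 83.4 to 95.7. For monocytes 5 of 5 were higher, with sums of 43.9 to 61.6 against 25.5 to 32.4. Of these 1, Chil3, was called, against 0.179% of all genes called higher in AGED females. For plasmacytoid dendritic cells, the leukocytes that make the most type I interferon, 3 of 7 markers were higher, with sums of 144 to 205 against 156 to 167. For proliferation 8 of 8 markers were higher and 0 were called, with sums of 5.06 to 20.9 against 3.35 to 5.74. For neutrophils 5 of 6 were higher and 0 were called, with a median change of 1.21, mean levels of -1.37 to -0.48 against -2.32 to -1.45, and summed signals that overlapped between the groups. In males 1 of 5 monocyte markers (Chil3) and 2 of 6 neutrophil markers (S100a8 and S100a9) were called higher in AGED mice. Over all genes 0.851% were called in either direction in males. Of the listed markers, 1 of 11 for T cells, 1 of 10 for macrophages and 1 of 6 for monocytes were not measured. The part of monocytes, neutrophils, macrophages or dividing cells in the female changes was not tested.

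The difference of the age changes, female less male, was taken within the slides, so a shift between slides cancels in it. It was positive for all 37 members, with a median of 1.36 against -0.02 over all genes, and a range from 0.12 for Tor3a to 3.46 for Ifi44. In limma, 6 members passed an adjusted p under 0.05 (Irf9, Ifih1, Ifit1, Ifit3, Usp18 and Xaf1), against 0.127% of all genes with the female change the more positive. The contrast shares its female arrays with the comparison the list was drawn from and is not independent of it. Its adjusted p values, here and below, are therefore a description of these arrays. The count was 0 without any 1 of MAT females 1, 2 or 4, AGED females 2 or 4, or MAT males 1 or 2. It was 1 without AGED female 1 or MAT male 3, and 3 without AGED female 3, AGED male 4 or MAT female 3. Without AGED male 1 it was 29, against 0.762% of all genes.

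**Figure D3:**
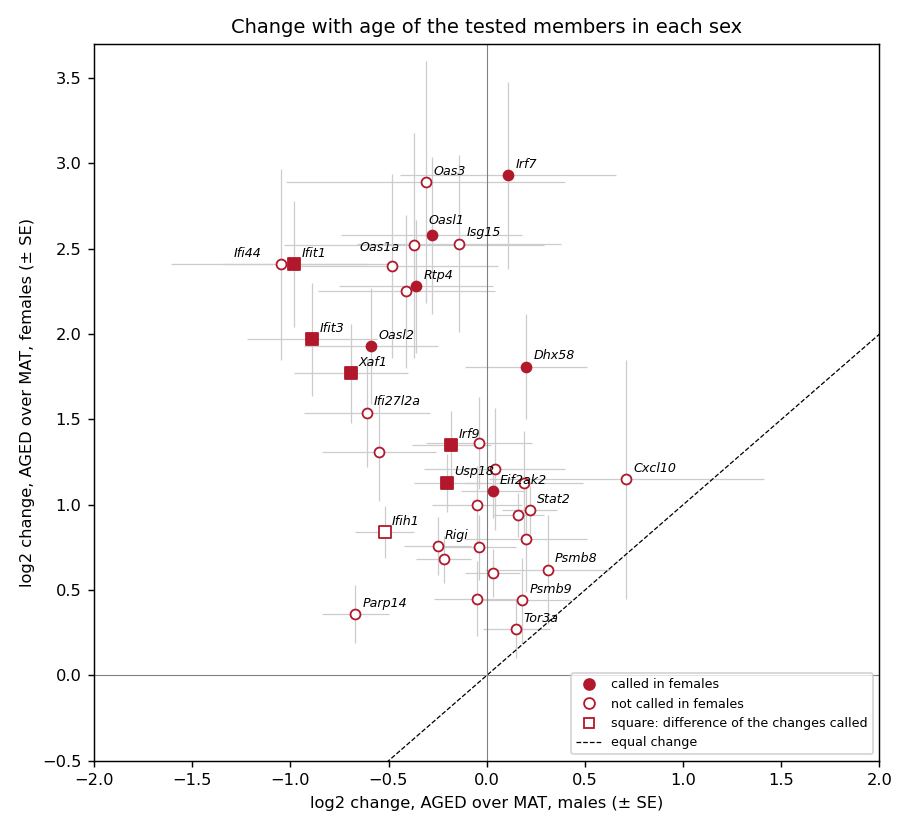
Change of each of the 37 members from MAT to AGED in females (vertical axis) and in males (horizontal axis), log2 scale, with bars for 1 SE from the fit over 16 arrays, n = 4 arrays per group. Every point lies above the dashed line of equal change, and the female changes run from 0.27 to 2.93 while the male changes lie between -1.05 and 0.71.

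Where the groups of one age were set side by side, 18 of the 37 members were called higher in AGED females than in AGED males, against 1.88% of all genes. All 37 had the higher mean in AGED females, as had 40.7% of all genes. The median difference was 1.07. These are the AGED female arrays that were in view when the list was drawn up, so the values are a description and no p is given. Leaving out any single array gave 12 to 21 called members. Among MAT mice 32 of the 37 were lower in females, a direction most genes shared, since 38.7% of all genes were higher in MAT females. The median difference was -0.32 against -0.08 over all genes, and 0 members were called in limma, against 0.164% of all genes. At an unadjusted p under 0.05, 7 members were lower in MAT females and 0 higher, against 9.52% and 4.47% of all genes. In both ages sex and slide cannot be told apart.

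The 3 transcription factors of the response were Irf7, the factor that amplifies interferon production, and Irf9 and Stat2, which are parts of ISGF3. Irf7 had levels of -2.75, -2.53, -1.89 and -3.1 in MAT females and 0.28, 0.27, 0.11 and 0.77 in AGED females. In males the levels of Irf7 were -1.33, -0.88, -1.86 and -2.2 in MAT and 0.65, -1.43, -2.66 and -2.42 in AGED mice. The female groups were far apart with a change of 2.93 ± 0.55 (SE), or 7.61-fold, whereas the AGED males reached from the female AGED level on array 1 down to the MAT female level on arrays 3 and 4, with a mean change of 0.11 ± 0.55 (adjusted p = 0.945).

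Irf9 rested on narrower groups than Irf7. Its levels were 2.35, 2.37, 2.77 and 2.12 in MAT and 3.62, 3.7, 3.81 and 3.86 in AGED females. In males Irf9 was at 2.77, 3.4, 2.79 and 2.47 in MAT and 2.93, 2.73, 2.25 and 2.81 in AGED mice. The AGED females were above all 12 other arrays, the change was 1.35 ± 0.20 in females and -0.18 ± 0.20 in males (adjusted p = 0.679), and the difference of the changes was 1.53 ± 0.28 (adjusted p = 0.0497). Stat2 changed by 0.97 ± 0.14 in females, just under 2-fold, from 2.51, 2.54, 2.81 and 2.54 to 3.69, 3.71, 3.49 and 3.4. Male Stat2 levels were 2.72, 2.83, 2.55 and 2.73 in MAT and 3.34, 2.72, 2.86 and 2.79 in AGED mice, a change of 0.22 ± 0.14 (adjusted p = 0.458). As with Irf7, the highest AGED male value was on array 1.

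**Figure D4:**
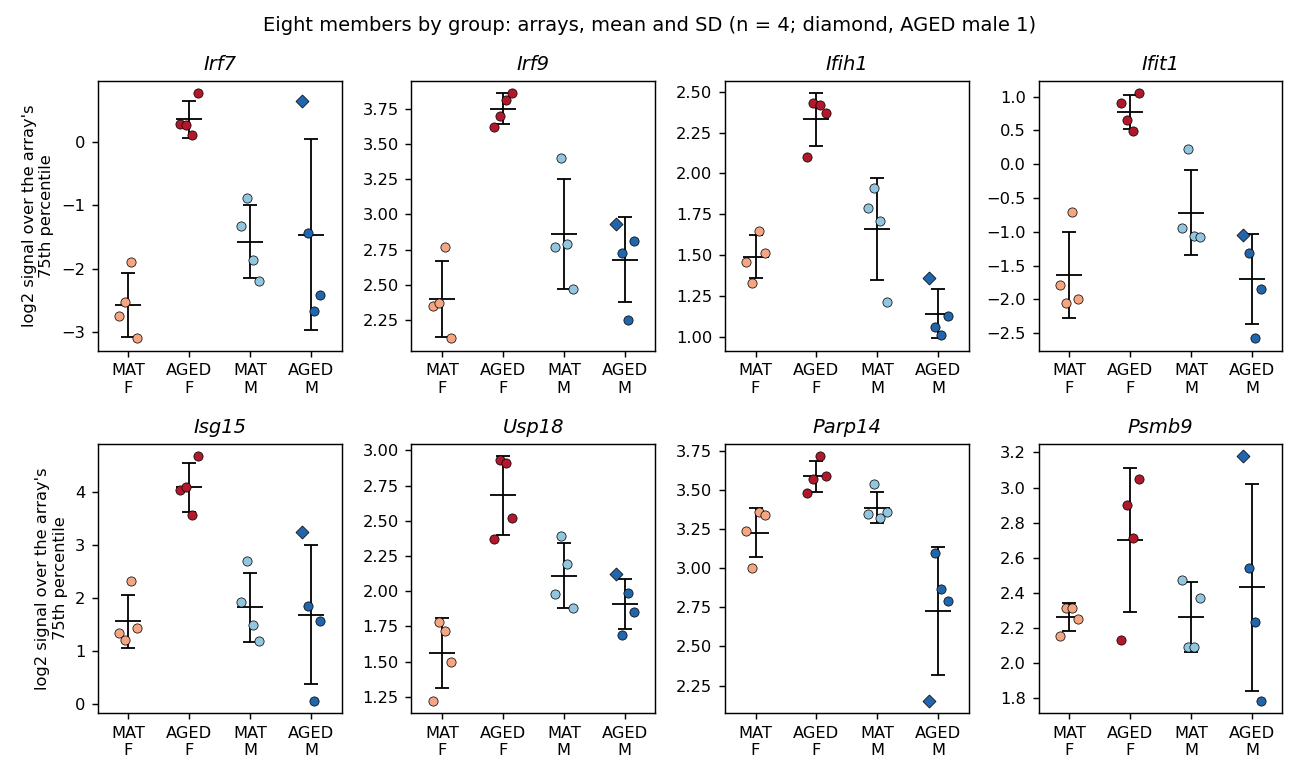
Level of 8 members (log2 signal over the 75th percentile of the array) on each of the 16 arrays, by age and sex (F, females; M, males), with the mean and SD of 4 arrays per group. In Irf7, Irf9, Ifih1, Ifit1, Isg15, Usp18 and Parp14 the 4 AGED female arrays lie above the 4 MAT female arrays, while in Psmb9 they overlap, and AGED male 1 (diamond) is the highest AGED male in every panel but Parp14, where it is the lowest.

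The plot of the 8 members by group shows which male groups were wide. Among the sensors of nucleic acid, Ifih1 (MDA5), which detects long double-stranded RNA, had levels of 1.46, 1.33, 1.65 and 1.51 in MAT and 2.1, 2.43, 2.42 and 2.37 in AGED females. Male levels of Ifih1 were 1.79, 1.91, 1.71 and 1.21 in MAT and 1.36, 1.06, 1.01 and 1.13 in AGED mice. The changes had opposite signs, 0.84 ± 0.15 in females and -0.52 ± 0.15 in males (adjusted p = 0.104 in males), with a difference of 1.36 ± 0.21 (adjusted p = 0.0262). A second probe of Ifih1 gave 0.69 in females and 0.01 in males, so the male value differed between probes. Rigi, the sensor of short RNA with a 5′ triphosphate, was at 2.13, 2.27, 2.35 and 2.2 in MAT and 2.73, 3.19, 3.01 and 3.07 in AGED females. In males it was at 2.56, 2.83, 2.56 and 2.44 and 2.89, 2.33, 1.98 and 2.21. Female groups did not overlap, at 0.76 ± 0.17, and male groups did, at -0.25 ± 0.17 (adjusted p = 0.497).

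Dhx58 (LGP2), which tunes the other 2 RNA sensors, showed levels of -2.16, -2.28, -1.94 and -2.29 in MAT and -0.58, -0.42, -0.27 and -0.17 in AGED females. In MAT males the levels were -1.66, -1.19, -1.95 and -2.06 and in AGED males -0.32, -1.64, -2.17 and -1.95. Of the AGED males only array 1 lay within the range of the AGED females, and the changes were 1.81 ± 0.31 in females and 0.20 ± 0.31 in males (adjusted p = 0.786). Zbp1, a sensor of Z-form nucleic acid that can start cell death, had a female change of 2.25 ± 0.45 and a male change of -0.41 ± 0.45 (adjusted p = 0.682).

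The OAS family makes a second messenger that activates the nuclease RNase L, and Oasl1 and Oasl2 are relatives, of which Oasl1 restrains the translation of Irf7. Eif2ak2 (PKR) blocks translation when it meets double-stranded RNA. All 6 measured genes of this group had AGED female arrays above all MAT female arrays, with changes from 1.08 to 2.89. Oasl1 had levels of -0.63, -0.28, 0.58 and -0.51 in MAT and 2.26, 2.36, 1.94 and 2.92 in AGED females. Its male levels were 0.54, 1.63, 0.24 and 0.29 in MAT and 1.92, 0.25, -0.54 and -0.04 in AGED mice. The AGED females were above all 12 other arrays, MAT male 2 and AGED male 1 being the next highest, with a change of 2.58 ± 0.46 in females and -0.28 ± 0.46 in males (adjusted p = 0.796).

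Oasl2 behaved alike, at 1.31, 1.36, 1.92 and 1.08 in MAT and 3.23, 3.16, 3.27 and 3.73 in AGED females. Male arrays gave 1.8, 2.71, 1.7 and 1.49 in MAT and 2.12, 1.59, 0.33 and 1.28 in AGED mice. The female change was 1.93 ± 0.34 and the male change -0.59 ± 0.34 (adjusted p = 0.398), with AGED male 3 the lowest of the 16 arrays. Oas1a was at 1.53, 1.43, 2.01 and 1.06 in MAT and 3.62, 3.73, 4.04 and 4.73 in AGED females. Its male levels were 1.31, 2.64, 1.8 and 1.58 in MAT and 3.73, 1.99, -0.7 and 0.83 in AGED mice, a range of over 4 on the log2 scale in the last group. Signal of near-identical Oas1 copies on this probe cannot be told apart from that of Oas1a, and the second Oas1a probe gave 2.51 in females beside 2.52 for the first, and -0.17 in males beside -0.37.

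Oas2, the other measured enzyme of the family, changed by 2.40 ± 0.54 in females and -0.48 ± 0.54 in males (adjusted p = 0.683). Oas3 was close to background. Its levels were -6.08, -5.55, -4.38 and -5.82 in MAT and -2.97, -2.84, -2.67 and -1.76 in AGED females, well above background on 2 and 4 arrays. In males they were -4.86, -4.34, -5.94 and -5.83 in MAT and -2.82, -5.93, -6.69 and -6.75 in AGED mice, well above background on 2 arrays and 1 array. Most of the lower values therefore lay at the edge of detection, and the female change of 2.89 ± 0.71 is less precise than that of the other members. Its size also depended on the processing, from 1.5 to 2.89 over the alternative settings, and the difference of its age changes ran from 1.25 to 3.53. Eif2ak2 went from -0.08, -0.02, 0.06 and -0.15 to 0.98, 1.17, 0.8 and 1.19 in females, a change of 1.08 ± 0.16. Its male levels were 0.12, 0.75, 0.04 and -0.01 in MAT and 0.42, 0.22, 0.06 and 0.32 in AGED mice, a change of 0.03 ± 0.16 (adjusted p = 0.942). Without MAT male 2, the one high MAT male array, the male change of Eif2ak2 was 0.21.

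The IFIT proteins bind viral RNA that lacks the cap marks of host RNA and block its translation. Ifit1 had levels of -1.79, -2.06, -0.71 and -1.99 in MAT and 0.91, 0.65, 0.49 and 1.05 in AGED females. In males the levels ran in the other order, -0.95, 0.22, -1.07 and -1.08 in MAT and -1.05, -1.32, -2.58 and -1.85 in AGED mice. MAT female 3 and MAT male 2 stood above the other arrays of their groups. The change was 2.41 ± 0.37 in females and -0.98 ± 0.37 in males (adjusted p = 0.21), and the difference of 3.39 ± 0.53 (adjusted p = 0.0261) was the largest among the 6 members that passed.

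Ifit3 was at 0.98, 0.62, 1.91 and 1.1 in MAT and 3.17, 3.14, 2.89 and 3.28 in AGED females. Among males Ifit3 was at 2.27, 1.74, 1.92 and 1.71 in MAT and 1.68, 1.54, 0 and 0.83 in AGED mice, so every AGED male lay below every MAT male. The change was 1.97 ± 0.33 in females and -0.89 ± 0.33 in males (adjusted p = 0.188), with a difference of 2.87 ± 0.46 (adjusted p = 0.0286). Its near-identical copy Ifit3b, which its probe may share, changed by 1.89 ± 0.38 in females and -1.10 ± 0.38 in males and is not separate evidence. Ifit2 was the mildest of the 3, with 0.75 ± 0.19 in females and -0.04 ± 0.19 in males (adjusted p = 0.942).

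Isg15 is a ubiquitin-like protein that is joined to other proteins after interferon, Usp18 removes it and also silences the interferon receptor, and Herc6 is the ligase. Isg15 had levels of 1.33, 1.2, 2.31 and 1.43 in MAT and 4.03, 4.09, 3.57 and 4.68 in AGED females. In males the levels were 1.93, 2.69, 1.49 and 1.19 in MAT and 3.25, 1.85, 0.05 and 1.57 in AGED mice. The AGED females stood apart from all other arrays, with AGED male 1 the nearest, and the AGED males spread over more than 3 on the log2 scale. The change was 2.53 ± 0.52 in females and -0.14 ± 0.52 in males (adjusted p = 0.918), and the second Isg15 probe gave 2.79 and -0.62.

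Usp18 had tighter groups. Its levels were 1.22, 1.78, 1.72 and 1.5 in MAT and 2.37, 2.93, 2.91 and 2.52 in AGED females. Male arrays gave 1.98, 2.39, 2.19 and 1.88 in MAT and 2.12, 1.69, 1.99 and 1.85 in AGED mice, overlapping in range. The change was 1.13 ± 0.17 in females and -0.20 ± 0.17 in males (adjusted p = 0.593), with a difference of 1.32 ± 0.24 (adjusted p = 0.0492). Herc6 changed by 1.00 ± 0.23 in females and -0.05 ± 0.23 in males (adjusted p = 0.937).

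Of the other antiviral effectors 11 were measured, and AGED female arrays lay above all MAT female arrays for 10. Ifi44, an antiviral protein of the cytoplasm, had levels of -1.98, -2.37, -1.61 and -2.08 in MAT and 0.33, 0.46, -0.02 and 0.83 in AGED females. In males it was at -1.36, -1, -1.79 and -1.43 in MAT and -0.5, -1.87, -4.29 and -3.11 in AGED mice. AGED male 3 and AGED male 4 were the lowest of the 16 arrays, and AGED male 1 was above all MAT males. The change was 2.41 ± 0.56 in females and -1.05 ± 0.56 in males (adjusted p = 0.366), the most negative male change of the members. Rtp4, a transmembrane chaperone that also restricts viral replication, was at 2.39, 2.29, 3.06 and 1.96 in MAT and 4.73, 4.71, 4.47 and 4.9 in AGED females. Its male levels were 3.12, 3.66, 3 and 2.69 in MAT and 4.15, 2.81, 1.74 and 2.34 in AGED mice. Female arrays were cleanly split, at 2.28 ± 0.39, and male arrays were not, at -0.36 ± 0.39 (adjusted p = 0.68).

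Ifi27l2a is a small hydrophobic protein of inner membranes that interferon induces strongly. In females it was at 5.66, 5.16, 5.28 and 4.81 in MAT and 6.9, 6.89, 6.21 and 7.07 in AGED mice. Male levels were 5.91, 6.37, 5.45 and 5.44 in MAT and 5.66, 5.56, 4.21 and 5.31 in AGED mice. Its change was 1.54 ± 0.32 in females and -0.61 ± 0.32 in males (adjusted p = 0.355). Xaf1, an antagonist of the apoptosis inhibitor XIAP, was at 0.86, 0.82, 1.28 and 0.79 in MAT and 2.52, 2.74, 2.59 and 2.98 in AGED females. Levels of Xaf1 in males were 1.52, 2.36, 1.36 and 1.03 in MAT and 1.64, 1.08, 0.31 and 0.49 in AGED mice. The lowest AGED female was above the highest of the 12 other arrays, and the changes of 1.77 ± 0.29 in females and -0.69 ± 0.29 in males (adjusted p = 0.259) differed by 2.46 ± 0.41 (adjusted p = 0.0353). A second, dimmer Xaf1 probe gave 1.32 and -0.47.

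Tor3a, an ATPase of the endoplasmic reticulum, moved the least. It was at 1.75, 1.76, 1.8 and 2.15 in MAT and 2.18, 2.14, 2 and 2.21 in AGED females. In males it was at 1.87, 2, 1.82 and 1.41 in MAT and 2.26, 1.95, 2 and 1.5 in AGED mice. Groups overlapped in both sexes, at 0.27 ± 0.17 in females and 0.15 ± 0.17 in males (adjusted p = 0.679), and its second probe gave 0.61 in females, with the groups apart, so the probes disagreed. Of the effectors not given in full, Rsad2 (viperin), Bst2 (tetherin), Cmpk2, Trim30a, Ifi35 and Trex1, the DNase that clears cytosolic DNA, had female changes from 0.60 for Trex1 to 1.36 for Bst2 and male changes from -0.55 for Rsad2 to 0.19 for Trim30a.

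Parp9, Dtx3l and Parp14 modify proteins with ADP-ribose or ubiquitin, Parp9 and Dtx3l as a complex. Parp14 was at 3.24, 3, 3.36 and 3.34 in MAT and 3.48, 3.57, 3.72 and 3.59 in AGED females. In males it was at 3.35, 3.54, 3.32 and 3.36 in MAT and 2.15, 3.1, 2.87 and 2.79 in AGED mice. The male groups were apart and the female groups nearly touched, with changes of -0.67 ± 0.17 in males (adjusted p = 0.0602) and 0.36 ± 0.17 in females. Unlike most members, Parp14 had its lowest AGED male value on array 1, where the others were high. Parp9 changed by 0.68 ± 0.14 in females and -0.22 ± 0.14 in males (adjusted p = 0.467), and Dtx3l by 0.45 ± 0.22 and -0.05 ± 0.22 (adjusted p = 0.929), with a second probe of Dtx3l at 0.54 and 0.35.

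Antigen processing genes of the MHC region are induced by interferon of both types. Psmb8 and Psmb9 are catalytic subunits of the immunoproteasome, and Tap1 carries peptides into the endoplasmic reticulum. Psmb8 was at 2.35, 2.61, 2.64 and 2.25 in MAT and 2.49, 3.3, 3.12 and 3.42 in AGED females. Its male levels were 2.73, 1.47, 2.28 and 2.52 in MAT and 3.5, 2.44, 2.05 and 2.25 in AGED mice. Psmb9 was at 2.15, 2.31, 2.31 and 2.25 in MAT and 2.13, 2.9, 2.71 and 3.05 in AGED females, and in males at 2.47, 2.09, 2.09 and 2.37 and 3.18, 2.54, 2.23 and 1.78. AGED female 1 lay within the MAT females for Psmb8 and just below them for Psmb9. For both genes AGED male 1 was the highest AGED male. Female changes were 0.62 ± 0.32 for Psmb8, 0.44 ± 0.25 for Psmb9 and 0.80 ± 0.31 for Tap1, and male changes were 0.31 ± 0.32 (adjusted p = 0.653), 0.18 ± 0.25 (adjusted p = 0.761) and 0.20 ± 0.31 (adjusted p = 0.78).

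The chemokine Cxcl10 attracts T cells and is induced by interferon of both types. It was at -0.73, 0.03, 0.75 and -0.85 in MAT and -0.11, 0.97, 1.18 and 1.77 in AGED females. Male Cxcl10 levels were -1.49, -0.18, -0.03 and -0.73 in MAT and 2.31, -0.96, -1.65 and 0.71 in AGED mice. No group was compact, and the changes of 1.15 ± 0.70 in females and 0.71 ± 0.70 in males (adjusted p = 0.642) were within the spread of the arrays. Without AGED male 1 the male change of Cxcl10 was -0.02.

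Across the 16 arrays the members moved together. The median Pearson correlation over the 666 pairs of members was 0.82, and 0.67 after the mean of each group was removed, where the points share arrays, slide and scaling. Within groups, Oasl1, Isg15 and Rtp4 followed the median of the other members most closely, each at 0.97. Stat2 and Ifih1 were looser, both at 0.63. Usp18 at 0.30, Ifi35 at -0.06 and Parp14 at -0.43 did not follow it. These values are a description over 16 arrays.

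There were 10 further probes of the members, each of a gene with 2 kept probes. All 10 lay higher on every AGED female array than on every MAT female array, against 5.05% of all genes. In males 0 separated the groups, where 3.87% of all genes had AGED arrays below all MAT arrays. With 10 probes a count of 0 is near that share. The 2 probes of a gene share the RNA of each bladder and are not replicates.

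The rest of the pathway was read from lists of its parts. These lists too were chosen with earlier results of these data known, so their female values are a description without p. Over all genes, 0.179% were called higher in females and 0.851% in either direction in males. A count of 0 in a short list is near these shares and does not show that its genes stayed level. Of 20 interferon genes of type I and type III, 10 were measured and 0 were called in either sex, with a median change of -0.02 in females and -0.20 in males. Their mean levels were between -5.23 and -4.42 over the arrays, close to the lowest measured signals, and Ifnb1, the fibroblast interferon, was not among those measured. Ifnk, an interferon of epithelial cells, changed by -0.14 ± 0.29 in females and -1.03 ± 0.29 in males (adjusted p = 0.0932) and was well above background on 4 MAT and 1 AGED male arrays. Ifne changed by 0.81 ± 0.31 in females, from -5.39 to -4.82 on the MAT arrays to -4.65 to -4.12 on the AGED arrays. It was well above background on all of these, and its male change was 0.37 ± 0.31 (adjusted p = 0.584). Ifnab was well above background on 2 MAT and 0 AGED male arrays, and no change is given for it.

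All 6 receptor subunits were measured and 0 were called, with median changes of 0.04 in females and -0.01 in males. Ifnlr1, the receptor subunit specific to type III interferon, changed by -0.03 ± 0.29 in females and 0.75 ± 0.29 in males (adjusted p = 0.224). Ifnar1 changed by 0.01 ± 0.15 and -0.36 ± 0.15 (adjusted p = 0.252). Of 9 genes of JAK-STAT signalling and its inhibitors, 0 were called in either sex. Ptpn6, a phosphatase of leukocytes, changed by 0.21 ± 0.27 and 0.63 ± 0.27 (adjusted p = 0.263).

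Of 15 sensors and adaptors that lead to interferon production, 12 were higher in AGED females and 11 in AGED males, and 0 were called in either. Cgas, the sensor of cytosolic DNA, changed by 0.74 ± 0.19 in females and 0.23 ± 0.19 in males (adjusted p = 0.576 in males). The sensor of single-stranded RNA Tlr7 changed by 0.73 ± 0.23 in females and 0.13 ± 0.23 in males (adjusted p = 0.801 in males). Of the 17 measured genes of type II interferon and its targets, 15 were higher in AGED females, with a median change of 0.47, and 0 were called. Lower in AGED females were Ifng, the type II interferon itself, at -0.75 ± 0.97, and Cxcl9, at -0.31 ± 0.99. Gbp3 and Irgm1, GTPases of defence against intracellular microbes, changed by 1.06 ± 0.37 and 0.97 ± 0.20 in females. In males they changed by -0.44 ± 0.37 (adjusted p = 0.578) and -0.04 ± 0.20 (adjusted p = 0.95).

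**Figure D5:**
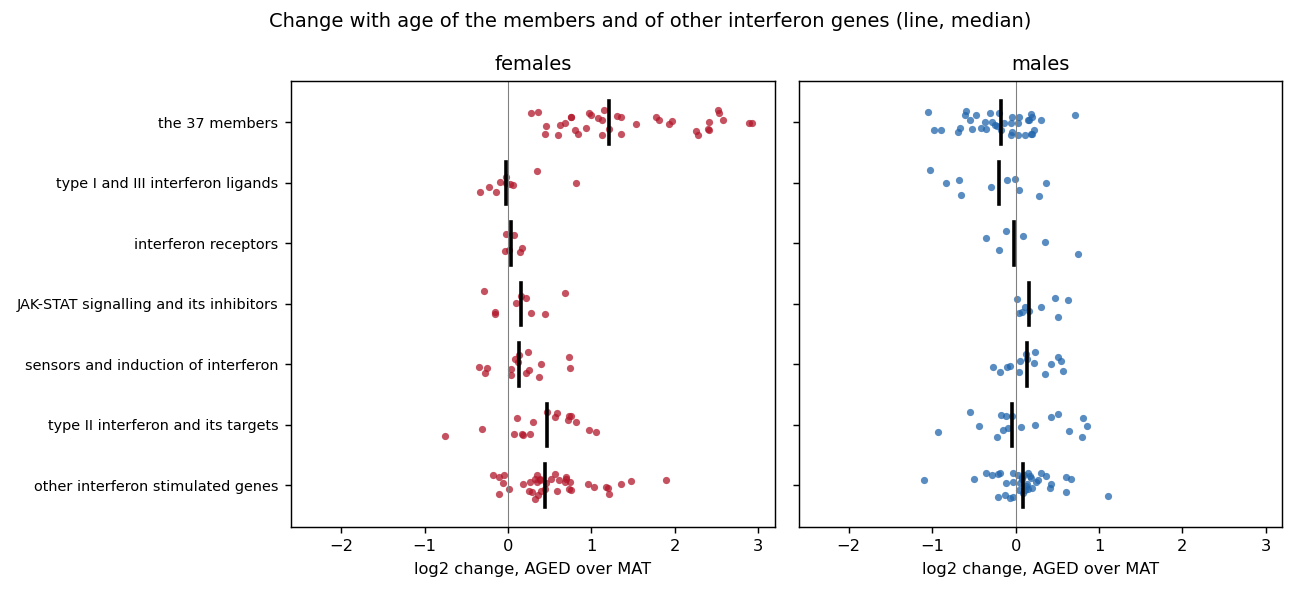
Change from MAT to AGED (horizontal axis, log2 scale) in females and in males of the 37 members and of the measured genes of 6 other lists of the interferon system (rows), with 1 point per gene and a line at each median. In females the member median is 1.21, that of other interferon stimulated genes 0.45 and that of type II interferon targets 0.47. The female medians of the ligands and of the receptors lie near 0, with single genes away from it, and the male medians lie between -0.20 and 0.16.

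The plot of the lists places the members beside the rest of the system. Of 38 other interferon stimulated genes that were measured, of 45 listed, 33 were higher in AGED females, with a median change of 0.45. In limma 3 were called higher, against 0.179% of all genes. The called genes were Phf11a at 1.21 ± 0.20, Phf11d at 1.17 ± 0.21 and Ifi204, a sensor of DNA, at 1.35 ± 0.25. They come from the same AGED female arrays and are not separate evidence. In males 25 of the 38 were higher, the median change was 0.10, and 0 were called, against 0.851% of all genes in either direction. The difference of the changes passed for 1, Ifit3b, at 3 (adjusted p = 0.0477), against 0.127% of all genes with the female change the more positive. No test compared one list with another.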

How the data were processed

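RNA of 16 C57BL/6 bladders was hybridised to 1-colour Agilent arrays, 1 bladder per array. The authors scanned the arrays and deposited Feature Extraction output (10.7.3.1 per the file headers, 9.1 per the submitters' processing notes): for each spot an intensity that the software had background-subtracted and detrended but not normalised between arrays, the raw intensity, and flags. A series table deposited by the authors holds log2 values centred on each probe's median, which followed the scanner values with r = 1 and served as an alternative.

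From the processed intensity, log2 values less the 75th percentile of each array were computed. Control spots and outlier-flagged spots were left out (399 probe values), no probe was saturated, and probes well above background on at least 4 of 16 arrays were kept (36972 of 55681). Accessions were named through RefSeq (GRCm38.p6), which named 20982 of the kept probes. An accession that was not named counted as a gene of its own. A gene was its brightest kept probe, and 26781 genes were tested in limma 3.58.1 (R 4.3.3), in 1 model of group means with 12 residual degrees of freedom and Benjamini-Hochberg adjustment over all genes. The fit was tested on simulated data. Members, pathway lists and marker lists were chosen with earlier results of these data known. Given in full were members called in an age comparison or in the difference between sexes, the brightest of each role group, and the 3 largest rises and 3 smallest or most negative changes per sex, and from the pathway lists the called genes or else the 2 with the largest change. The values of 1 of these genes are not reported here. The methods' t-test, other scalings, background corrections, filters and fits, and leaving out each array were alternatives.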

Additional observations from a re-analysis of the deposited data

Results flagged for a closer look

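Single arrays stood apart from the 3 others of their group in 7 of 100 sets of 4 arrays examined, 7%, where chance gives about 1 in 20. The gap to the nearest array, as a share of the range of the group, was 0.889 for Stat2 and 0.868 for Xaf1 on MAT female 3, which was above the other MAT females in both. It was 0.948 for the median deviation of all members on that array. On MAT male 2 it was 0.839 for Eif2ak2, 0.901 for Ifit1 and 0.83 for Parp14, each above the other MAT males. For Tor3a it was 0.888 on MAT female 4, again the highest. AGED male 1, the highest array of its group for 35 of the 37 members, did not pass this criterion, since the other 3 AGED males also differed among themselves.

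For 6 members the difference of the age changes passed in limma, against 0.127% of all genes with the female change the more positive. The female less male difference was 1.53 for Irf9, 1.36 for Ifih1, 3.39 for Ifit1, 2.87 for Ifit3, 1.32 for Usp18 and 2.46 for Xaf1. The contrast holds the AGED female arrays that were in view when the list was drawn up, so it is a description. Leaving out single arrays gave 0 to 29 members. In each the AGED females were above all AGED males.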

How the results depend on the processing

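The median female change of the members was 1.14 to 1.46 when single arrays were left out, and that of the males -0.39 to 0.09. The number of members called depended on the fit. Of 11 in females, 4 were called with no filter on dim probes, 22 with each sex fitted alone or with array weights, 23 by the methods' t-test or by limma without adjustment, and 0 by the t-test after adjustment. Of 6 for the difference between sexes, 17 were called with normexp background correction, 0 with no filter, 2 with the mean of the kept probes and 23 with array weights. In males normexp called 1, Ifih1, lower. With the replicate block 0 members were called in females and 0 for the difference, but the samples share only a number: same-numbered MAT and AGED arrays correlated at -0.15 to 0.07, and no array followed its own number best. Leaving out single arrays gave 0 to 23 calls in females, 0 to 1 in males, 0 to 29 for the difference and 12 to 21 between AGED females and AGED males, an alternative added after the data were seen. The causes were not tested.

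Some changes near 0 turned sign. Male changes were -0.16 for Irf7 and -0.01 for Psmb8 with array weights, and -0.03 for Eif2ak2 with median scaling. Normexp, which moved the male median of all genes to 0.12, gave -0.05 for Dhx58, 0.25 for Oas3, 0.34 for Isg15 and -0.41 for Psmb9 in males and -0.22 for the difference of Tor3a. A floor gave 0.26 for Oas3. Without single arrays the male change was -0.60 to 0.50 for Irf7, -0.31 to 0.00 for Irf9, -0.20 to 0.41 for Dhx58, -0.79 to 0.04 for Oasl1, -1.12 to 0.35 for Oas1a, -1.22 to 0.09 for Oas3, -0.05 to 0.21 for Eif2ak2, -0.67 to 0.40 for Isg15, 0.00 to 0.48 for Psmb8, -0.07 to 0.39 for Psmb9 and -0.02 to 1.30 for Cxcl10. The difference was -0.02 to 0.24 for Tor3a and -0.14 to 1.18 for Cxcl10. The female change of each of the 24 members given in full kept its sign in every fit. Levels of Oas3 and of the interferon genes lay near background, which limits what these arrays can show for them.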
